A study of Homo sapiens with 3 samples.

Results

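The interferon regulatory factors are a family of transcription factors that share a DNA-binding domain and recognize GAAA repeats in the promoters of antiviral genes. The 8 genes described here (IRF1, IRF2, IRF3, IRF4, IRF5, IRF7, IRF8 and IRF9) were found by matching Ensembl identifiers to symbols, and they are 8 of the 58333 genes in the table. They were measured by poly(A)+ RNA-seq in Cal62, an established human thyroid cancer cell line, after transfection with a control siRNA (siControl) or with 1 of 2 siRNAs against ADAR (siADAR1 #1 and siADAR1 #2), the gene that encodes the RNA-editing enzyme ADAR1. Each transfection has 2 libraries, replicate 1 and replicate 2, and all 6 libraries are from this single cell line with transient silencing, with no untransfected cells among them. The question of the study was what silencing ADAR1 changes in the transcripts of these cells, and the comparisons below put that question to this family.

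In the textbook scheme, double-stranded RNA or DNA in the cytosol is recognized by sensors whose adaptors activate the kinase TBK1, which phosphorylates IRF3 and IRF7, and these induce type I interferon genes. Interferon then acts through its receptor and the JAK kinases on STAT2, which joins IRF9 in a complex that binds the interferon-stimulated response element (ISRE). IRF7 and IRF9 are themselves induced by that complex, whereas IRF1 is a classic target of interferon-gamma, through a gamma-activated site (GAS). ADAR1 edits double-stranded RNA, and its loss is known for letting unedited RNA reach the sensors.

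The promoters of 5 members (IRF1, IRF4, IRF5, IRF8 and IRF9) were taken from a RefSeq table (GRCh38.p14), as 9 windows of 300 bases that run from 250 bases before to 50 bases after a start. These windows were searched on both strands for GAS, written TTCNNNGAA, and for an ISRE, written as GAAA repeated after any 2 bases. Both elements are named in the scheme above. GAS was found in the windows of IRF1 and IRF9 and is shown here in capitals with 10 bases on each side.
IRF1, chr5:132490879-132490907, minus strand: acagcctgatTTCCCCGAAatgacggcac
IRF9, chr14:24161192-24161220, plus strand: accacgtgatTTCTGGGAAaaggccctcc
The match began 124 bases before the start in IRF1 and 63 bases before the start in IRF9. GAS was present in 7.66% and the ISRE in 3.57% of the 35116 promoter windows in RefSeq, and the ISRE was in none of the 9 windows of these 5 members. The promoters of IRF2, IRF3 and IRF7 were not searched. A match is a description of the letters only, and binding was not measured.

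The libraries held 30114840 to 50029763 reads on genes. ADAR had 10015 and 11472 reads in siControl, 1420 and 1788 with siADAR1 #1, and 1467 and 1999 with siADAR1 #2, so the silencing was seen in all 4 siADAR1 libraries (limma log2FC -2.71, adjusted p = 0.00295, and -2.35, adjusted p = 0.00128). Of the thyroid lineage markers, PAX8 had 12789 and 15557 reads in siControl, 10984 and 12000 with siADAR1 #1, and 2242 and 3744 with siADAR1 #2. NKX2-1 was at 0 in every library and TG (thyroglobulin) reached 55 reads at most, while TSHR had 33 to 84 reads and FOXE1 48 to 229. Blood cell markers were low, with CD3E at 0 in every library and CD14, the highest of the 9 genes, at 127 reads at most. In bulk RNA, fewer expressing cells and less RNA per cell cannot be told apart.

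Levels within siControl were compared per length of the canonical transcript and per library depth, as FPKM. IRF3, which is made constitutively in most cells and waits in the cytoplasm for activation, was the highest at 27.3 ± 5.41 FPKM (SD, n = 2). IRF9, the DNA-binding subunit of the complex with STAT2, followed at 11.4 ± 6.76 FPKM (SD, n = 2), then IRF2, which opposes IRF1 at shared sites, at 8.49 ± 0.810 FPKM (SD, n = 2). IRF7 had 7.28 ± 3.99 FPKM and IRF1 7.16 ± 0.120 FPKM (SD, n = 2 each). Each of these 4 genes overlapped the next in range, though IRF2 lay above IRF1, while IRF3 lay above IRF9 without overlap. IRF5, best known from myeloid and B cells, was at 0.293 ± 0.176 FPKM (SD, n = 2). The lymphoid and myeloid factors IRF4 and IRF8 were at 0.0297 and 0.0119 FPKM.

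The order of levels was not the same in the siADAR1 libraries. With siADAR1 #1 the means were 21.4 FPKM for IRF3, 18.5 for IRF7, 17.1 for IRF9, 16.4 for IRF1 and 12.8 for IRF2, and each gene overlapped the next in range. With siADAR1 #2 IRF9 stood first at 39.0 FPKM, ahead of IRF3 at 28.8, IRF7 at 23.1, IRF2 at 11.6 and IRF1 at 6.98, again with overlap between neighbours. IRF5 remained under 1 FPKM in every library, with means of 0.492 and 0.276 FPKM. Genes further apart in the order did not all overlap: IRF3 lay above IRF2 with both siRNAs, and IRF9 lay above IRF2 and IRF1 with siADAR1 #2. The order also depended on the length used. Per length of all annotated exons of a gene joined, an alternative added after the values were seen, IRF3 was again first in siControl (11.5 FPKM, without overlap with the next), but IRF7 was first with siADAR1 #1 (13.6 FPKM) and with siADAR1 #2 (17.0 FPKM, ahead of IRF3 at 12.1 and IRF9 at 9.80).

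**Figure D1:**
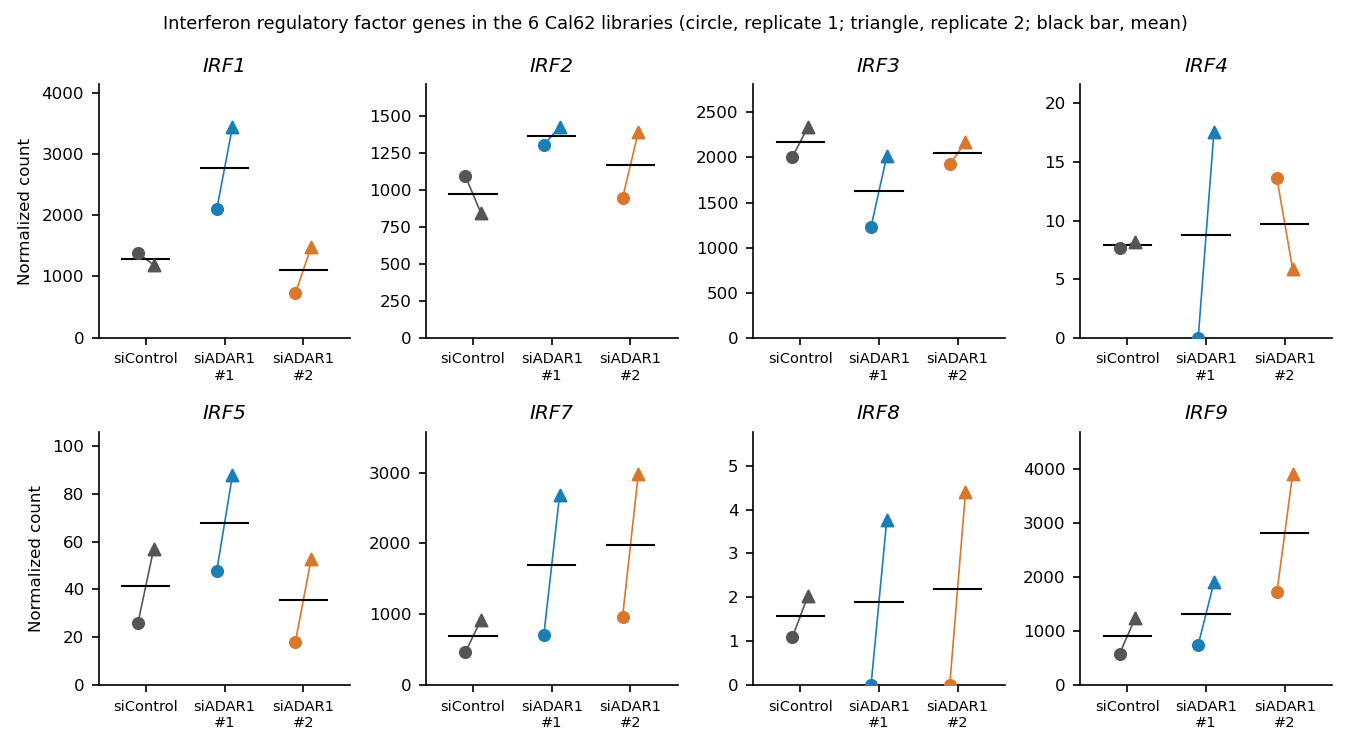
Normalized counts (vertical axis, starting at 0 and scaled per gene) of the 8 members in the 3 conditions; circles are replicate 1, triangles replicate 2 and black bars the mean of the 2 libraries. In IRF5, IRF7 and IRF9 the triangle stands above the circle in all 3 conditions, and IRF1 is highest in the siADAR1 #1 libraries, at 2092.9 and 3441.8.

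A gene was tested when it passed a filter set at 10 normalized counts on average, which 20858 genes and 6 of the 8 members did. It was called when the adjusted p of limma was under 0.05 and log2FC lay beyond 0.5 in either direction. Normalized counts are reads divided by the size factor of the library, and log2FC is a difference of the deposited log2 values, which compress changes of low counts. The siRNA comparisons share the siControl libraries, so their values stand side by side and are not independent.

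IRF1 encodes a short-lived activator induced by interferon-gamma and by NF-kB, with roles in antigen presentation and in growth arrest. The normalized count of IRF1 was 1379.7 and 1186.2 in siControl, 2092.9 and 3441.8 with siADAR1 #1, and 723.5 and 1482.3 with siADAR1 #2. Both siADAR1 #1 libraries lay above all the others, and the siADAR1 #2 libraries lay on either side of siControl. The log2FC was 1.07 (SE 0.34) with siADAR1 #1, for which the adjusted p of limma was 0.0677, and -0.30 (SE 0.34, adjusted p = 0.556) with siADAR1 #2. The difference between the siRNAs themselves passed the test: IRF1 was lower with siADAR1 #2 than with siADAR1 #1, with a log2FC of -1.37 (SE 0.34, limma adjusted p = 0.0161), a fold of 0.387. It was the only one of the 6 members tested that was called in this comparison, in which 32.8% of all genes were called.

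That call of IRF1 rested on particular libraries. Without siADAR1 #1 replicate 2 the log2FC was -1.01 (limma adjusted p = 0.0780), and without siADAR1 #2 replicate 1 it was -0.86 (limma adjusted p = 0.0706). When the replicate number was added as a block, IRF1 was also called higher with siADAR1 #1 than with siControl (SE 0.26, limma adjusted p = 0.0214). IRF1 shares 2805 exon bases with the antisense gene IRF1-AS1, which had 75 to 114 reads per library, and 486 with ENSG00000283782, which had 166 to 461. The strand setting of the counting was not given in the sources used here, so reads of these partners cannot be told apart from those of IRF1.

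IRF2 encodes the repressor that competes with IRF1 for the same DNA element. Its normalized count was 1095.5 and 842.5 in siControl, 1303.6 and 1425.7 with siADAR1 #1, and 944.6 and 1390.1 with siADAR1 #2. The siADAR1 #1 libraries lay above siControl and those of siADAR1 #2 overlapped it. The log2FC of IRF2 was 0.50 (SE 0.21, limma adjusted p = 0.146) with siADAR1 #1 and 0.25 (SE 0.21, adjusted p = 0.421) with siADAR1 #2. IRF2 was not called in any of the comparisons, with or without the replicate block, though it was called with siADAR1 #1 after median centring (0.65, limma adjusted p = 0.0450) and with the block after quantile normalization (0.64, adjusted p = 0.0450). The 95% confidence interval of its log2FC with siADAR1 #1 ran from 0.010 to 0.997, which holds changes close to 0 as well as close to 1.

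IRF3 encodes the factor that TBK1 activates by phosphorylation, so that its activity is controlled at the protein and not measured here. Its normalized count was 2005.9 and 2340.8 in siControl, 1231.6 and 2016.1 with siADAR1 #1, and 1923.2 and 2170.8 with siADAR1 #2. The libraries of the 3 conditions overlapped, and the lowest value was that of siADAR1 #1 replicate 1. The log2FC was -0.46 (SE 0.22, limma adjusted p = 0.201) with siADAR1 #1 and -0.085 (SE 0.22, adjusted p = 0.815) with siADAR1 #2, which turned to 0.069 with quantile normalization. The confidence interval with siADAR1 #2, from -0.60 to 0.43, leaves out a change of IRF3 beyond a log2FC of 1 in either direction. Without siADAR1 #1 replicate 2 the log2FC with siADAR1 #1 was -0.81 (limma adjusted p = 0.0182), which is past the threshold, but siADAR1 #1 was then the single library with the lowest value and was assumed to vary like the other conditions. IRF3 shares 734 exon bases with the antisense gene BCL2L12, which had 791 to 1802 reads, close in number to the 1317 to 2295 reads of IRF3.

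IRF5 acts downstream of Toll-like receptors on inflammatory cytokine genes, mainly in myeloid cells. It had 24 and 56 reads in siControl, 51 and 70 with siADAR1 #1, and 16 and 36 with siADAR1 #2. As normalized counts these were 26.1 and 57.1, 47.7 and 87.9, and 18.1 and 52.7 in the same order. In normalized counts the conditions overlapped, and replicate 2 was above replicate 1 in each of them. The log2FC was 0.71 (SE 0.57, limma adjusted p = 0.443) with siADAR1 #1 and -0.29 (SE 0.57, adjusted p = 0.747) with siADAR1 #2. With siADAR1 #2 against siADAR1 #1 it was -0.998 (SE 0.57, limma adjusted p = 0.215), and with the replicate block the same difference of IRF5 passed the test (SE 0.33, adjusted p = 0.0419).

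IRF7 encodes the factor that amplifies the production of type I interferon, and its own gene is induced by interferon. The normalized count of IRF7 was 459.5 and 915.9 in siControl, 709.8 and 2685.6 with siADAR1 #1, and 963.8 and 2979.3 with siADAR1 #2. Replicate 2 was higher in every condition, and siControl replicate 2 exceeded siADAR1 #1 replicate 1. Within replicate 1 the log2 value of IRF7 was above siControl by 0.62 with siADAR1 #1 and by 1.06 with siADAR1 #2, and within replicate 2 by 1.55 and by 1.70. The log2FC was 1.09 (SE 0.69, limma adjusted p = 0.324) with siADAR1 #1 and 1.38 (SE 0.69, adjusted p = 0.177) with siADAR1 #2. When the replicate number was added as a block, the SE became 0.21 and IRF7 was called higher with both siRNAs (limma adjusted p = 0.0092 and 0.00176). The difference between the siRNAs was 0.29 (SE 0.69, adjusted p = 0.776), with a confidence interval from -1.31 to 1.89 that does not show that the siRNAs act alike on IRF7.

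IRF9 brings the complex with STAT2 to DNA. Its normalized count was 579.3 and 1243.3 in siControl, 744.4 and 1905.6 with siADAR1 #1, and 1719.1 and 3915.3 with siADAR1 #2. Both siADAR1 #2 libraries lay above both siControl libraries, whereas the siADAR1 #1 libraries overlapped siControl. Within replicates the log2 difference from siControl was 0.36 and 0.61 with siADAR1 #1 and 1.56 and 1.65 with siADAR1 #2. The log2FC of IRF9 was 0.49 (SE 0.54, limma adjusted p = 0.590) with siADAR1 #1 and 1.61 (SE 0.54, adjusted p = 0.0599) with siADAR1 #2.

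With the replicate block, IRF9 was called higher with siADAR1 #2 than with siControl (SE 0.14, limma adjusted p = 0.000159) and than with siADAR1 #1 (log2FC 1.12, adjusted p = 0.000462). Without the block the latter difference had an adjusted p of 0.148 in limma. With siADAR1 #1 the blocked adjusted p was 0.0353, and the log2FC of 0.49 stayed short of the size required for a call. IRF9 shares 1544 exon bases with ENSG00000259529 on the same strand, which had 135 to 250 reads against 532 to 2673 of IRF9. No strand setting can tell the reads of these genes apart in the shared bases, and the levels of IRF9 carry this limit.

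IRF4 and IRF8 did not pass the filter and were not tested. IRF4, a factor of plasma cells and activated lymphocytes, had 7 and 8 reads in siControl, 0 and 14 with siADAR1 #1, and 12 and 4 with siADAR1 #2. IRF8, which directs myeloid and dendritic cell differentiation, had 1 and 2, 0 and 3, and 0 and 3 reads in the same order. Both genes overlapped between all conditions, and a count of 0 allows up to 3 reads, which is 2.81 to 4.39 normalized counts in these libraries. A fall or a small change of IRF4 or IRF8 was not detectable at these counts. Neither gene rose to a high count, as IRF4 had at most 14 reads and IRF8 at most 3 in any library.

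Counted over the family, 0 of the 6 members tested were called with siADAR1 #1, where 16.8% of all genes were called, and 0 with siADAR1 #2, where 26.6% were called. With both siRNAs pooled as a group of 4 libraries, 0 members and 0% of all genes were called by limma, also with the replicate block, while 2916 genes had an unadjusted p under 0.05 without the block and the smallest adjusted p was 0.0988. ADAR, the silenced gene, was itself not called in this fit (log2FC -2.53, limma adjusted p = 0.0988, and 0.226 with the block). The pooled fit thus missed the known silencing, and its lack of calls does not show that the members were unchanged. The largest pooled log2FC among the members were those of IRF7, 1.23 (SE 0.66, limma adjusted p = 0.465), and IRF9, 1.05 (SE 0.64, adjusted p = 0.521). None of the 6 members had all 4 siADAR1 libraries above or all below siControl, patterns held by 12% and 16.6% of all genes.

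With the replicate block, 2 of the 6 members were called with siADAR1 #1 (IRF1 and IRF7), against 19.6% of all genes, and 2 with siADAR1 #2 (IRF7 and IRF9), against 28.9%. Between the siRNAs 3 were called (IRF1 and IRF5 lower, IRF9 higher with siADAR1 #2), against 34.9%. Averaging the changes of the siRNAs with the block gave 2 called members, IRF7 (SE 0.18, limma adjusted p = 0.00291) and IRF9 (SE 0.12, adjusted p = 0.00117), against 19.4% of all genes. Without the block the same average gave 0 called members, with a limma adjusted p of 0.190 for IRF7 and 0.160 for IRF9. These counts also depended on the variance model. In a blocked fit whose prior variance was the same at every expression level, 0 members were called with siADAR1 #1, 2 with siADAR1 #2 and 2 between the siRNAs. With siADAR1 #2 IRF7 had an adjusted p of 0.0413 and IRF9 of 0.0230 in limma. The shares of called members are set beside the shares of all genes as a description, and with 6 members no test of the family was made.

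**Figure D2:**
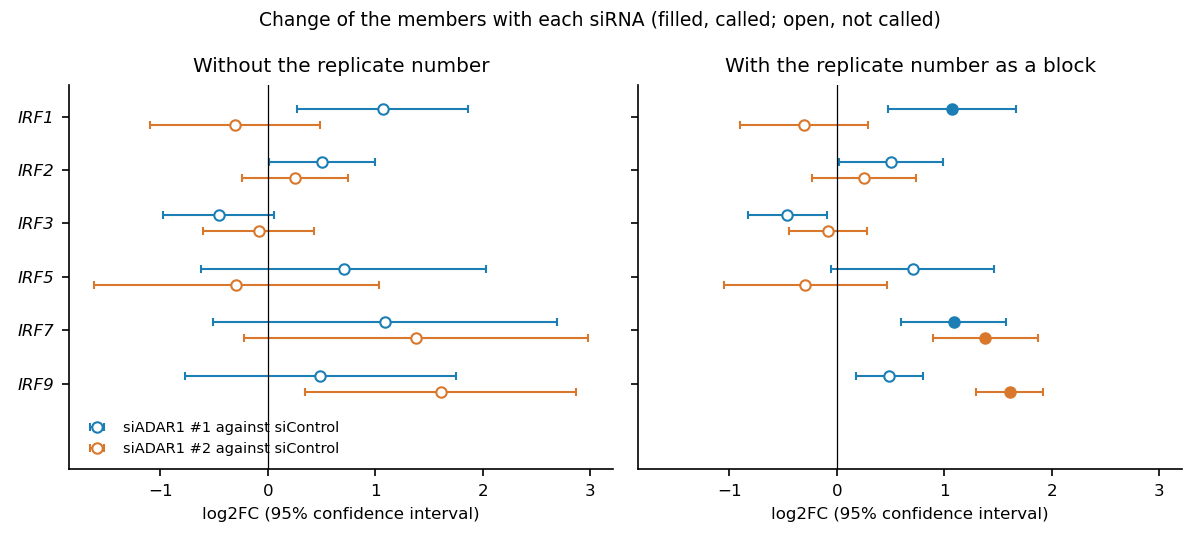
log2FC (horizontal axis, with 95% confidence intervals from limma) of the 6 members tested with siADAR1 #1 (blue) and siADAR1 #2 (orange) against siControl, without the replicate number on the left and with it as a block on the right; filled points were called. The points are the same in both panels, and the intervals of IRF7 and IRF9 are narrower on the right, where SE falls to 0.21 and 0.14.

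The difference between replicate 2 and replicate 1 was then described within each condition, in a comparison added after the values had been seen. IRF9 was higher in replicate 2 by 1.10 log2 units in siControl, 1.35 with siADAR1 #1 and 1.19 with siADAR1 #2. IRF7 was higher by 0.99, 1.92 and 1.63 in the same order, and IRF5 by 1.06, 0.85 and 1.42. IRF3 was also higher each time, by 0.22, 0.71 and 0.17, while IRF1 (-0.22, 0.72 and 1.03) and IRF2 (-0.38, 0.13 and 0.56) were lower in siControl replicate 2. Thus 4 of the 6 members were above in all 3 conditions, a pattern held by 14.4% of all genes, and 0 were below in all 3, as 15.8% of all genes were.

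In a fit over the 3 conditions, replicate 2 was called above replicate 1 for IRF7 (1.51 log2 units, SE 0.17, limma adjusted p = 0.0182) and IRF9 (1.21, SE 0.11, adjusted p = 0.00519), when 0.149% of all genes (31) were called in either direction. Without a trend in the variance model 0 genes were called, with an adjusted p of 0.528 for both IRF7 and IRF9 in limma. What the replicate numbers mark, such as a day or a passage, is not given in the sources used here. The difference was present in siControl as well, and its source was not tested.

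**Figure D3:**
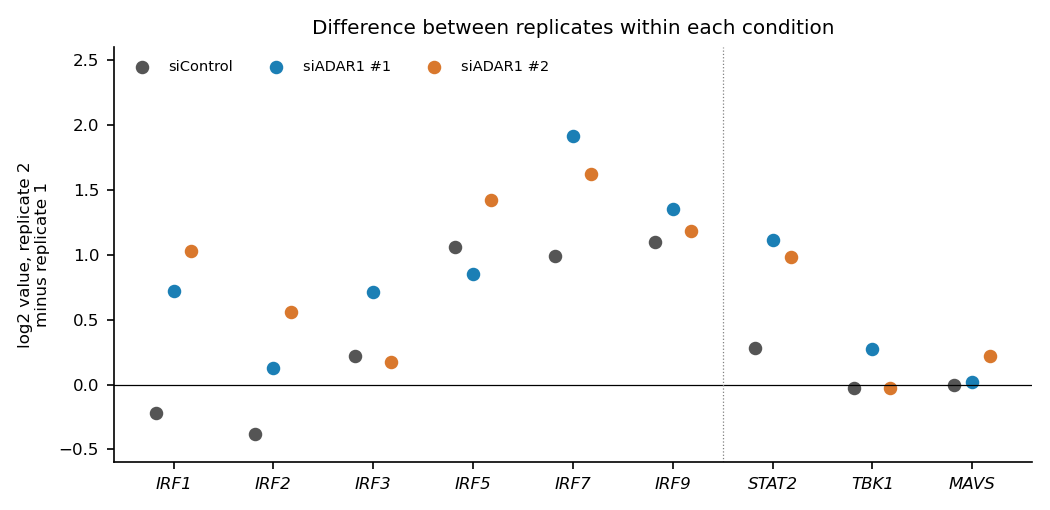
Difference of the log2 value between replicate 2 and replicate 1 (vertical axis) in siControl (grey), siADAR1 #1 (blue) and siADAR1 #2 (orange) for the 6 members tested and, right of the dotted line, 3 partners. IRF5, IRF7 and IRF9 lie at 0.85 or above in every condition, whereas TBK1 and MAVS lie closer to 0.

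Among the partners of the family, STAT2, which forms the complex with IRF9, had normalized counts of 1491.9 and 1814.5 in siControl, 1344.7 and 2911.7 with siADAR1 #1, and 3618.4 and 7161.3 with siADAR1 #2. It rose with siADAR1 #2 (log2FC 1.63, SE 0.40, limma adjusted p = 0.0177) and not past the test with siADAR1 #1 (0.27, adjusted p = 0.693), and the difference between the siRNAs passed as well (1.36, adjusted p = 0.0295). The call of STAT2 with siADAR1 #2 was lost without siControl replicate 1 (1.49, limma adjusted p = 0.125), siControl replicate 2 (1.77, adjusted p = 0.0748) or siADAR1 #2 replicate 2 (1.14, adjusted p = 0.0808). It was also lost with no filter (limma adjusted p = 0.299), without a trend (adjusted p = 0.0729) or with robust eBayes (adjusted p = 0.0947), and it was kept with the replicate block (adjusted p = 0.000586).

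TBK1, the kinase of IRF3 and IRF7, had a log2FC of -0.40 (limma adjusted p = 0.0656) with siADAR1 #1 and 0.31 (adjusted p = 0.103) with siADAR1 #2, and it was higher with siADAR1 #2 than with siADAR1 #1 by 0.72 (adjusted p = 0.00374). MAVS, the adaptor of the RNA sensors, fell with siADAR1 #2 (-1.12, limma adjusted p = 0.000537), from 12243.3 and 12240.7 normalized counts in siControl to 5222.9 and 6078.8, and had a log2FC of -0.13 (adjusted p = 0.477) with siADAR1 #1. IFNB1, the main product of IRF3 and IRF7 in non-immune cells, had 0 and 3 reads in siControl, 1 and 8 with siADAR1 #1, and 1 and 2 with siADAR1 #2, so its level was too low to test.

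Of 24 sensors and adaptors upstream of the family, 21 were tested, and 1 rose and 2 fell with siADAR1 #1 while 4 rose and 3 fell with siADAR1 #2, beside 16.8% and 26.6% of all genes called in either direction. With the replicate block 1 rose and 2 fell with siADAR1 #1, and 7 rose and 4 fell with siADAR1 #2, beside 19.6% and 28.9% of all genes. The median log2FC of the list was 0.020 and 0.32, beside -0.024 and -0.014 over all genes tested. STING1, the adaptor of the DNA sensor, rose with both siRNAs (1.01, limma adjusted p = 0.0177, and 2.25, adjusted p = 0.000477). TLR4, the endotoxin receptor, fell with siADAR1 #1 (-2.21, limma adjusted p = 0.00697) and rose with siADAR1 #2 (1.52, adjusted p = 0.0142). CGAS, the DNA sensor, had a log2FC of 0.41 (limma adjusted p = 0.116) and fell with siADAR1 #2 (-0.96, adjusted p = 0.00344).

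Of 22 interferon genes, 2 passed the filter and 11 were at 0 reads in every library. The tested genes were IFNE, with a log2FC of -0.30 (limma adjusted p = 0.554) and -0.85 (adjusted p = 0.0783), and IFNL4, with 0.041 (adjusted p = 0.936) and -0.27 (adjusted p = 0.487). Neither passed the test, and the highest count of any gene of the list was 91 reads.

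All 17 receptor and JAK-STAT genes on the list were tested, and 4 rose and 0 fell with siADAR1 #1 while 2 rose and 4 fell with siADAR1 #2 (median log2FC 0.30 and 0.065), beside the same 16.8% and 26.6% of all genes. With the replicate block 4 rose and 0 fell with siADAR1 #1, beside 19.6% of all genes. With siADAR1 #2 4 rose and 4 fell with the block, beside 28.9%. IFNGR2, a chain of the interferon-gamma receptor, rose with siADAR1 #1 (1.02, limma adjusted p = 0.0109) and fell with siADAR1 #2 (-0.94, adjusted p = 0.00791). IFNGR1, the other chain, had 0.50 (limma adjusted p = 0.0912) and rose with siADAR1 #2 (0.57, adjusted p = 0.0426). SOCS3, a feedback inhibitor of JAK signaling, rose with siADAR1 #1 (1.11, limma adjusted p = 0.0179) and had 0.63 (adjusted p = 0.0826) with siADAR1 #2, which was called with the replicate block (adjusted p = 0.0138).

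Of 20 cofactors and regulators of the family, 19 were tested, and 1 rose and 4 fell with siADAR1 #1 while 2 rose and 6 fell with siADAR1 #2 (median log2FC -0.095 and -0.27), beside 16.8% and 26.6% of all genes. With the replicate block 1 rose and 4 fell with siADAR1 #1, beside 19.6% of all genes. With siADAR1 #2 3 rose and 7 fell with the block, beside 28.9%. IRF2BPL, named for its relation to the binding proteins of IRF2, fell with both siRNAs (-0.93, limma adjusted p = 0.0151, and -1.40, adjusted p = 0.00155). ETV6, a repressor of the ETS family, fell with both as well (-0.78, limma adjusted p = 0.0332, and -0.85, adjusted p = 0.0153). KAT2B, an acetyltransferase, had -0.57 (limma adjusted p = 0.0702) and fell with siADAR1 #2 (-1.26, adjusted p = 0.00221).

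The 38 listed ISRE targets, genes known to respond to interferon through this element, were written from general knowledge, and no ISRE was searched for in them. All 38 were tested. Without the block 0 were called with siADAR1 #1 and 3 rose with siADAR1 #2 (IFIT2, IFIT3 and IFITM3), though 35 of 38 had a positive log2FC with each siRNA and the median was 0.86 and 1.44, and 6.18% and 11.1% of all genes were called higher. With the replicate block 15 and 23 of them rose and 0 fell, beside 7.34% and 12.3% of all genes. Between the replicates 15 of the 38 were called above in replicate 2, with a median difference of 1.83 log2 units, and 37 of 38 were above in all 3 conditions, beside 0.149% of all genes called in either direction and 14.4% above in all 3. By condition the median difference was 0.76 in siControl, 2.01 with siADAR1 #1 and 2.50 with siADAR1 #2. The block assumes the same difference in every condition, so its calls are limited by this. The summed normalized count of the list was 39004 and 55979 in siControl, 37009.6 and 125327 with siADAR1 #1, and 45765 and 205995 with siADAR1 #2.

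IFIT2, an antiviral protein that binds RNA, had normalized counts of 202.5 and 495.7 in siControl, 496.6 and 1986.0 with siADAR1 #1, and 1571.6 and 5407.9 with siADAR1 #2. It rose with siADAR1 #2 (log2FC 3.19, limma adjusted p = 0.0161) and had 1.64 (adjusted p = 0.180) with siADAR1 #1, which was called with the replicate block (adjusted p = 0.00141). OASL had 2.02 (limma adjusted p = 0.281) and 3.10 (adjusted p = 0.0857), and IFITM2 0.89 (adjusted p = 0.107) and 1.00 (adjusted p = 0.0581). With the replicate block OASL was called with both siRNAs (limma adjusted p = 0.00115 and 0.000102), as was IFITM2 (adjusted p = 0.00941 and 0.0033). OASL and IFIT2 were called between the replicates, at 2.66 and 1.69 log2 units (limma adjusted p = 0.00481 and 0.00519, in that order).

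Of 25 targets of IRF1 in antigen presentation and inflammation, 19 were tested, and 1 rose and 2 fell with siADAR1 #1 while 3 rose and 0 fell with siADAR1 #2 (median log2FC 0.28 and 0.22), beside 16.8% and 26.6% of all genes. With the replicate block 3 rose and 2 fell with siADAR1 #1 and 6 rose with siADAR1 #2, beside 19.6% and 28.9% of all genes. CIITA, the master regulator of MHC class II, fell with siADAR1 #1 (-1.03, limma adjusted p = 0.0187) and had 0.54 (adjusted p = 0.110) with siADAR1 #2. CD274, which encodes PD-L1, fell with siADAR1 #1 (-0.95, limma adjusted p = 0.0434) and rose with siADAR1 #2 (1.01, adjusted p = 0.0240). APOL1 had 1.76 (limma adjusted p = 0.0514, and 0.00595 with the block) and rose with siADAR1 #2 (2.11, adjusted p = 0.0181).

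**Figure D4:**
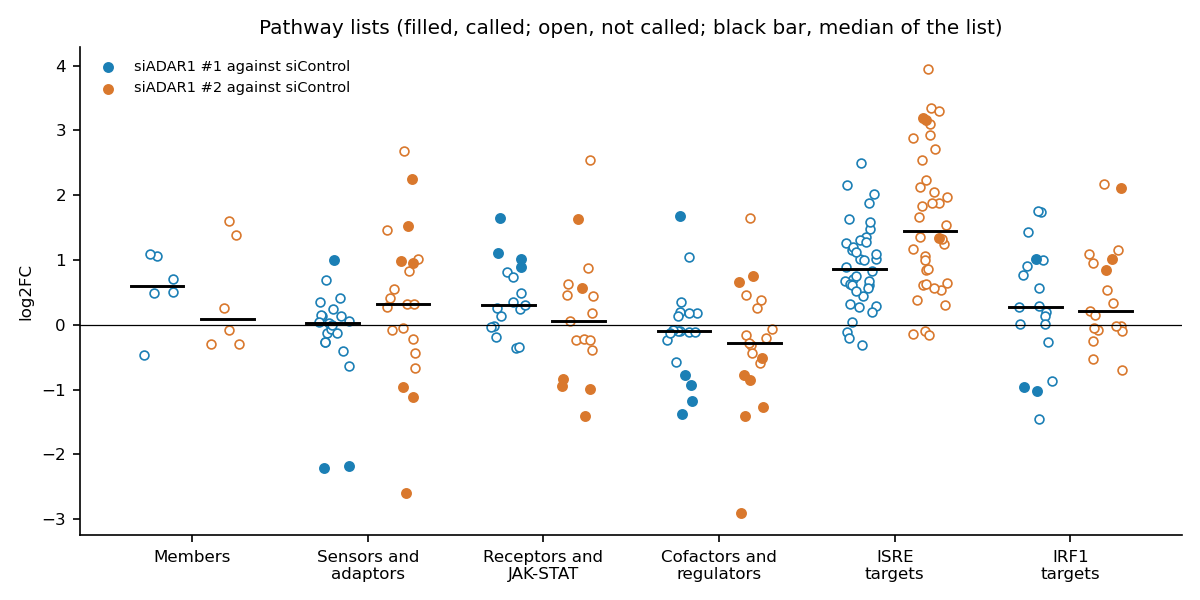
log2FC (vertical axis) of every tested gene of the family and of 5 pathway lists with siADAR1 #1 (blue) and siADAR1 #2 (orange) against siControl, without the replicate block; filled points were called and black bars are list medians. The ISRE targets lie mostly above 0, with medians of 0.86 and 1.44, and nearly all are open points.

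Among the partners and listed genes named above, 8 were called with siADAR1 #1, and all 8 calls were lost when 1 of the libraries was left out (TLR4 without siControl replicate 1, the others without either siControl library). With siADAR1 #2 13 were called and 8 of these calls were lost without at least 1 library, while those of MAVS, CGAS, STING1, IRF2BPL and KAT2B were kept.

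The genes most like each member across the 6 libraries were read from Pearson correlations of the log2 values. IRF7 was closest to NBN (r = 0.993) and to the ISRE target ISG15 (r = 0.990), and IRF9 to the ISRE target IFIT1 (r = 0.991) and to ENSG00000285652 (r = 0.991). IRF1 was closest to CYB5AP2 (r = 0.993) and LRRC75B (r = 0.992), and 44 genes had an r over 0.95 with it. IRF2 was closest to SOX2-OT (0.990) and C2CD4A (0.988), IRF3 to LSM10 (0.994) and RUSC1 (0.993), and IRF5 to RPS6KA6 (0.986) and LERFS (0.984). Within the family IRF7 and IRF9 had an r of 0.91. The 6 points share their conditions, their replicate numbers and their depth, and among 20858 genes high values arise readily over 6 libraries, so these neighbours are a description.

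The members lie on 8 chromosomes in GRCh38 (GENCODE 44). IRF1 is on the minus strand at chr5:132440440-132508719, IRF2 on the minus strand at chr4:184385702-184474558 and IRF3 on the minus strand at chr19:49659569-49665875. IRF4 is on the plus strand at chr6:391739-411443, IRF5 on the plus strand at chr7:128937457-128950038 and IRF7 on the minus strand at chr11:612553-615983. IRF8 is on the plus strand at chr16:85899116-85922606 and IRF9 on the plus strand at chr14:24161234-24168043. All values are for whole genes, and the isoforms were not told apart.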

How the data were processed

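Poly(A)+ RNA of transfected Cal62 cells was sequenced by the authors with 75-bp paired-end reads. They trimmed adapters with Atropos and counted reads on genes with featureCounts in bcbio-nextgen. Normalization by the authors was with DESeq2. For that step the methods prefer gene counts derived from Salmon, so whether Salmon or featureCounts underlies the deposited values is not known here. The strand setting and annotation release are not given in the sources used here. Per the labels each transfection is a single sample, and the deposited table has 2 columns for it, which were taken as the biological replicates of the methods. The deposited values are log2 values from a variance-stabilizing transformation of normalized counts. Undoing its curve gave whole reads for 100% of values, within 0.1 of a read. The table holds 58333 genes, 57830 of them with a symbol and length in GENCODE 44, and 0 columns were left unused.

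Between 30114840 and 50029763 reads were counted per library (median 43005907). Limits from 3 reads cover counting error only, and precision is further limited by having 2 libraries in each condition.

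Values were compared in R 4.3.3 with limma 3.58.1 (lmFit, eBayes with trend), two-sided, with Benjamini-Hochberg adjustment over the 20858 genes whose mean log2 value passed log2 of 10, a normalized count of 7.62. The pooled comparison had 2 groups and the others 3 groups. FPKM were computed here from the recovered reads. The members, lists and tests were chosen with earlier results of these data known, and the lists were written from general knowledge. Named genes are the members, ADAR, 4 partners (1 gene of the lists is not reported here), at most 3 genes per list with the smallest larger p of the siRNA comparisons, and the 2 nearest genes per member. CD3E and CD14 stand for the blood cell markers, and PAX8, NKX2-1, TG, TSHR and FOXE1 for the thyroid lineage markers. Epithelial and mesenchymal markers were also listed and are not described here. IFIT3, IFITM3 and ISG15 are named by their counts or likeness.

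The replicate numbers come from the column names. Deviations of replicate 2 from replicate 1 were correlated between the conditions, over 20858 genes, at 0.106, 0.110 and 0.162. Each was above 0.1, and the numbers were taken to pair the libraries, but correlations this weak cannot establish a pairing. The methods name the replicates as biological and independent. The blocked value is given where it changes a call, and such calls rest on the assumed pairing. The steps were tested on simulated data. As alternatives, the filter was dropped or raised to 50 normalized counts, and the fits were repeated with median centring, quantile normalization, eBayes without trend and robust eBayes, 4-library fits, the replicate block, the average of the siRNA changes, and each library left out in turn. The comparison between replicates, the block with another setting, voom for the former, and another gene length were added after the values were seen.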

Additional observations from a re-analysis of the deposited data

Results flagged for a closer look

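Effects of the siRNAs were compared for 27 named genes, and in 11 the difference between siADAR1 #2 and siADAR1 #1 itself passed the test (limma adjusted p under 0.05, log2FC beyond 0.5). Among the members this was IRF1, at -1.37. Among the partners it was MAVS at -0.99, STAT2 at 1.36 and TBK1 at 0.72. Upstream it was TLR4 at 3.74, CGAS at -1.37 and STING1 at 1.24. The others were IFNGR2 at -1.96, KAT2B at -0.69, CIITA at 1.57 and CD274 at 1.97. TLR4, IFNGR2 and CD274 were called in opposite directions with the siRNAs, while STING1 was called higher with both. In this comparison 32.8% of all genes were called, so differences between the siRNAs were common. The 27 genes include list genes chosen by small p-values of the siRNA comparisons in these data. The count of 11 depends in part on that choice and cannot be read against the share of all genes. Single outlying values were looked for over the 4 siADAR1 libraries, and 0 of the 6 members had one. The conditions alone, with 2 libraries each, are too small for that check.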

How the results depend on the processing

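With 2 libraries per condition the count of called members changed with several settings. For siADAR1 #1 it was 0, and it was 1 with a filter at 50 normalized counts, with quantile normalization or with the 4 libraries compared alone (IRF1 each time), 2 with median centring (IRF1 and IRF2), 2 with the replicate block, 4 with the block and quantile normalization, and 0 to 1 with a library left out. For siADAR1 #2 it was 0, and it was 1 with the filter at 50, median centring, quantile normalization or the 4 libraries alone (IRF9 each time), 2 with the replicate block, also with quantile normalization or without a trend, and 0 to 1 with a library left out. For siADAR1 #2 against siADAR1 #1 it was 1, and it was 0 with no filter, without a trend or with robust eBayes (IRF1 adjusted p = 0.264, 0.0638 and 0.0513 in limma), 3 with the block, 3 with the block and quantile normalization, 2 with the block and no trend, and 0 to 2 with a library left out. With both siRNAs pooled it was 0, also with the block. When the changes were averaged it was 0 without the block and 2 with it. Between the replicates it was 2, and 0 without a trend. Of all genes, 16.8% were called with siADAR1 #1, 26.6% with siADAR1 #2 and 32.8% between the siRNAs without the block. With the block these shares were 19.6%, 28.9% and 34.9%. Shares under the other settings are not given here, so those member counts are not set against all genes. The cause of the changes in count was not tested.

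Directions turned with quantile normalization for IRF3 with siADAR1 #2 (0.069, also with the block), and with median centring for MAVS with siADAR1 #1 (0.016) and TBK1 between the replicates (-0.0056). With a library left out, its condition had 1 library, assumed to vary like the others, and log2FC ranged from -0.32 to 0.74 for IRF5 pooled. With siADAR1 #1 it ranged from -0.19 to 1.16 for IRF9, -0.023 to 0.10 for IFNL4 and -0.29 to 0.82 for STAT2. With siADAR1 #2 it ranged from -0.20 to 0.027 for IRF3, -1.0 to 0.42 for IRF5, -0.82 to 0.21 for IRF1 and -0.024 to 0.53 for IRF2. Between the siRNAs it ranged from -0.66 to 1.25 for IRF7, -0.054 to 0.76 for ADAR and -0.53 to 0.028 for IRF2, and between the replicates from -0.12 to 0.34 for IRF2 and -0.028 to 0.12 for TBK1. The median of siADAR1 #1 replicate 1 lay at -0.17 log2 units from the mean of the library medians. Median centring subtracted this offset and so raised the values of that library, and it moved the other libraries by at most 0.10.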
